A study of Mus musculus with 4 samples.

Results

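The hormone genes Ghrl, Cck, Sct, Gcg, Gip, Sst and Tac1 mark the main types of enteroendocrine cell in the gut, and their expression was compared in sorted intestinal stem cells with and without CREPT. They were taken by gene symbol, and all 7 were found among the 18436 genes of the deposited expression table. RNA was sequenced from Lgr5-GFP high cells, the brightest GFP cells of disaggregated crypts, of 2 Lgr5-WT mice and 2 Lgr5-CREPTKO mice on a C57BL/6 background. The Lgr5-WT mice carried Lgr5-GFP-CreERT2, which expresses GFP and a tamoxifen-dependent Cre recombinase from the Lgr5 gene, without a floxed allele. The Lgr5-CREPTKO mice carried the same allele together with CREPT fl/fl, in which Cre can delete part of Rprd1b, the gene for the transcription regulator CREPT. Both genotypes received intraperitoneal tamoxifen on 5 consecutive days (1 mg daily) before the sort on day 7, so the control cells had also been exposed to tamoxifen and to Cre. GFP is absent from some crypts of this line, and the share of sorted cells that had lost CREPT was not measured here. By the methods, mice of both sexes were used at an age of 6 to 8 weeks, and the sex of each of these 4 was not given in the sources used here.

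Enteroendocrine cells are scattered, hormone-secreting cells of the gut epithelium. They arise from Lgr5+ stem cells through a secretory progenitor that switches on the transcription factor Neurog3, and then Neurod1, Pax4, Pax6, Isl1 and others, before a hormone gene is expressed. Each hormone is made as a precursor, which is cut by prohormone convertases, trimmed by carboxypeptidase E and stored in granules with chromogranins until nutrients trigger its release. The named types were defined by one leading hormone each, but a single cell can make several.

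The values are FPKM (fragments scaled by transcript length and by the mapped fragments of the library), which allow levels of different genes to be set side by side. The FPKM values summed to between 468830 and 499327 in a library. In genes with low values and 1 annotated transcript, the most frequent length-scaled value within a preset range was taken as 1 fragment. On that assumption, which was not checked, the libraries held an estimated 17300000 to 18300000 fragments. Rprd1b was at 17.69 and 18.09 FPKM in the Lgr5-WT mice and at 6.65 and 7.36 FPKM in the Lgr5-CREPTKO mice. The sorted cells carried their defining stem cell markers, with Lgr5 between 37.7 and 60.1 FPKM and Olfm4 between 4932 and 5351 FPKM. Xist, expressed from the inactive X chromosome of females, was between 93.7 and 169.2 FPKM, and the Y-linked Ddx3y was at most 0.02 FPKM in any library. By these genes each library had the pattern of a female mouse. Lgr5-CREPTKO mouse 2 was high in Paneth cell markers, of which 8 summed to 2510 FPKM against 844.5 to 1421 FPKM in the other 3 libraries.

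Of the 7 hormone genes, Ghrl, Cck and Tac1 fell in Lgr5-CREPTKO cells, and Ghrl fell furthest, by 13.1-fold. In 6 of the 7, all but Sct, both Lgr5-CREPTKO values lay below both Lgr5-WT values, and over all genes tested this was so for 31.0%. In none of the 7 did both lie above, as in 25.6% of all genes tested. A gene was called where limma's moderated test on log2(FPKM + 0.5), adjusted by the Benjamini-Hochberg method over the 12621 genes whose mean reached 0.5 FPKM, gave an adjusted p below 0.05 and the log2 fold change was beyond 1 in either direction. All 7 hormone genes passed the filter on low values, and Ghrl, Cck and Tac1 were called lower, where 1.01% of all genes tested were. None of the 7 was called higher, against 0.127% of all genes tested. With the adjusted p alone, the calls among the hormone genes were these 3, and 2.67% of all genes tested were lower and 0.412% higher. The log2 fold change was below -1 in all 7, as in 2.62% of all genes tested. The median log2 fold change of the 7 was -1.86, where that of all genes tested was -0.01. These 3 calls rest on all of the mice, and with any 1 of the 4 left out none of them was kept. Their log2 fold changes then ranged from -3.71 to -3.29 for Ghrl, from -1.87 to -1.43 for Cck and from -2.27 to -1.44 for Tac1. Without the filter on low values, or without the intensity trend of the variance, 0 hormone genes were called and 6 were lower at an unadjusted p below 0.05. Of all genes, 2250 of 18436 were lower at that p without the filter, and 1816 of 12621 without the trend. In bulk RNA from sorted cells, fewer hormone-expressing cells and less hormone mRNA per cell cannot be told apart.

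**Figure D1:**
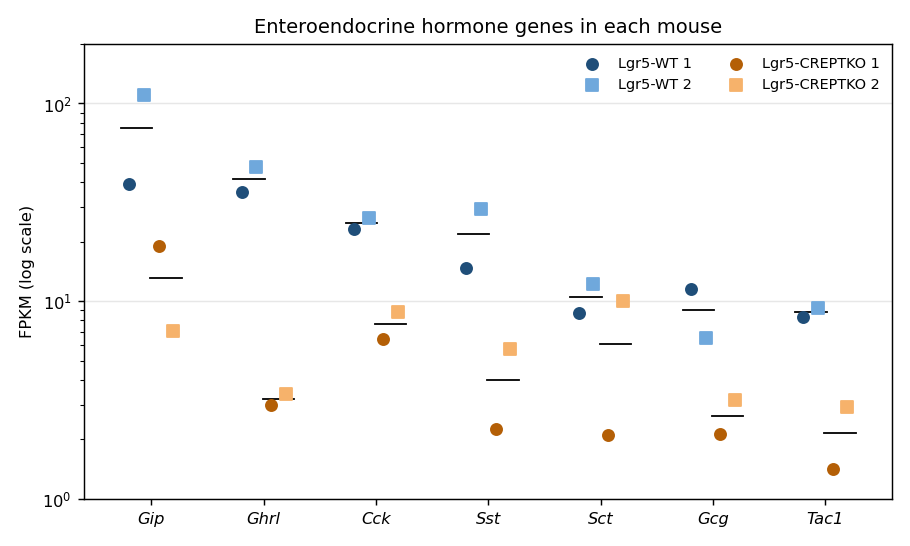
FPKM (log axis) of the 7 hormone genes in each of the 2 Lgr5-WT mice (blue) and 2 Lgr5-CREPTKO mice (orange), ordered by the Lgr5-WT mean, with short lines for the mean of each genotype. The orange points lie below both blue points in every gene except Sct, where Lgr5-CREPTKO mouse 2 was at 10 FPKM, and the widest gap is in Ghrl.

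Ghrl encodes ghrelin, a peptide that stimulates appetite and growth hormone release and marks X cells, and lies on the minus strand of chromosome 6 (GRCm38.p6) from 113716119 to 113719911. It was at 35.55 and 47.85 FPKM in the Lgr5-WT mice and at 2.99 and 3.40 FPKM in the Lgr5-CREPTKO mice. The lowest Lgr5-WT value was 10.5-fold above the highest Lgr5-CREPTKO value, and mice of one genotype differed by at most 1.35-fold. On the log2 scale the change was -3.50 ± 0.165 (SE; limma's moderated test, adjusted p = 0.0187), and the means differed by 13.1-fold. The longest annotated coding transcript, of 891 bases, would put an estimated 570 and 767 fragments on Ghrl in Lgr5-WT mice and 48 and 52 in Lgr5-CREPTKO mice, and the shortest 145 and 194 against 12 and 13.

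Cck, the gene for cholecystokinin, which I cells release after a fatty meal to contract the gallbladder and stimulate pancreatic enzyme secretion, lies on the minus strand of chromosome 9 from 121489824 to 121495694. It was at 23.22 and 26.41 FPKM in the Lgr5-WT mice and at 6.43 and 8.85 FPKM in the Lgr5-CREPTKO mice. Both Lgr5-CREPTKO values lay well below the Lgr5-WT values, and mice of one genotype were close. The log2 fold change was -1.65 ± 0.168 (SE; limma's moderated test, adjusted p = 0.0319), a 3.25-fold difference of means.

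Tac1 encodes the precursor of substance P and neurokinin A, tachykinins that contract smooth muscle and that the serotonin-producing enterochromaffin cells of the gut also express. It lies on the plus strand of chromosome 6 from 7555061 to 7562978. It was at 8.35 and 9.20 FPKM in the Lgr5-WT mice, and at 1.42 and 2.91 FPKM in the Lgr5-CREPTKO mice. The Lgr5-WT mice were alike, whereas the Lgr5-CREPTKO mice differed from each other by 2.05-fold, with both below the Lgr5-WT values. The log2 fold change was -1.86 ± 0.288 (SE; limma's moderated test, adjusted p = 0.0474). This was the call nearest to the threshold, with an adjusted p of 0.0527 at a pseudocount of 0.1 and of 0.0520 when the libraries were scaled to equal sums, and between 0.0334 and 0.325 over all alternatives.

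For Gip, Sst and Gcg both Lgr5-CREPTKO mice were below both Lgr5-WT mice, but the adjusted p was above 0.05. Gip, the gene for the K cell incretin glucose-dependent insulinotropic polypeptide, which raises insulin release after a meal, lies on chromosome 11 from 96024532 to 96030831. It was at 38.98 and 110.62 FPKM in the Lgr5-WT mice and at 19.11 and 7.07 FPKM in the Lgr5-CREPTKO mice. The mice of one genotype differed by 2.84-fold and 2.70-fold, and in the Lgr5-WT mice this was the widest spread of the 7 genes. Gip had a log2 fold change of -2.44 ± 0.646 (SE; limma's moderated test, adjusted p = 0.109), and this was -1.70 without Lgr5-WT mouse 2 and -3.19 without Lgr5-WT mouse 1.

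Sst encodes somatostatin, the D cell peptide that inhibits the release of most other gut hormones, and lies on chromosome 16 from 23889573 to 23891342. It was at 14.69 and 29.22 FPKM in the Lgr5-WT mice and at 2.27 and 5.72 FPKM in the Lgr5-CREPTKO mice. Mouse 2 was the higher of each genotype, by 1.99-fold and 2.52-fold, and the lowest Lgr5-WT value was 2.57-fold above the highest Lgr5-CREPTKO value. The log2 fold change was -2.36 ± 0.488 (SE; limma's moderated test, adjusted p = 0.0727). Over all alternatives the adjusted p lay between 0.0252 and 0.348.

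Gcg, which encodes proglucagon, the precursor that L cells cut into GLP-1 and GLP-2, lies on chromosome 2 from 62474530 to 62483653. It was at 11.47 and 6.49 FPKM in the Lgr5-WT mice and at 2.13 and 3.15 FPKM in the Lgr5-CREPTKO mice. Here Lgr5-WT mouse 1 was the higher of its genotype, unlike in the other 6 genes. Gcg had a log2 fold change of -1.56 ± 0.307 (SE; limma's moderated test, adjusted p = 0.0680).

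Sct encodes secretin, which S cells release in response to acid to stimulate bicarbonate secretion, and lies on chromosome 7 from 141278329 to 141279174. It was at 8.69 and 12.28 FPKM in the Lgr5-WT mice, and at 2.11 and 10 FPKM in the Lgr5-CREPTKO mice. Lgr5-CREPTKO mouse 2 lay within the Lgr5-WT range and mouse 1 lay below it, a 4.74-fold difference within the genotype. In the longest coding transcript these values correspond to an estimated 20 fragments in mouse 1 (exact Poisson 95% interval 12.2 to 30.9) and 90 in mouse 2 (72.4 to 110.6), where the intervals cover counting error only. Sct had a log2 fold change of -1.05 ± 0.660 (SE; 95% interval -2.75 to 0.65; limma's moderated test, adjusted p = 0.391). It was -2.05 without Lgr5-CREPTKO mouse 2 and -0.05 without Lgr5-CREPTKO mouse 1. Lgr5-CREPTKO mouse 2 was also the library with the high Paneth cell sum, and the part of other cells in its Sct value was not tested.

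**Figure D2:**
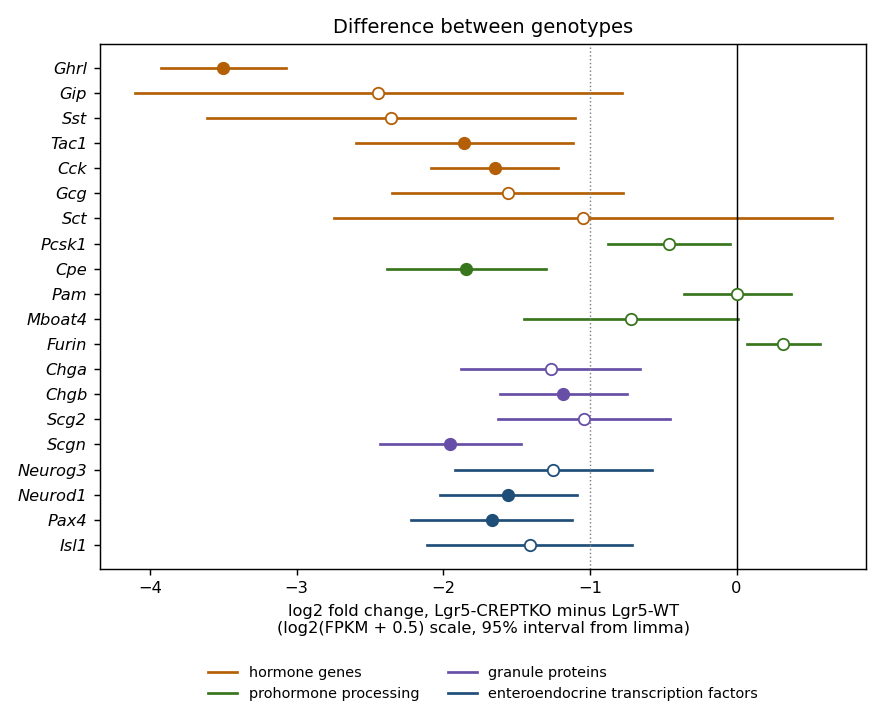
Log2 fold change of Lgr5-CREPTKO against Lgr5-WT (log2(FPKM + 0.5) scale, horizontal axis) with 95% intervals from limma for the hormone genes and for selected processing, granule and transcription factor genes. Filled points are genes called lower (adjusted p below 0.05 and log2 fold change below -1, the dotted line) and open points are genes that were not called. Ghrl lies furthest to the left at -3.50, and the interval of Sct is the one hormone interval that includes 0.

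The order of the hormone levels also differed between the mice. In Lgr5-WT cells the mean FPKM fell in the order Gip (74.8), Ghrl (41.7), Cck (24.8), Sst (21.955), Sct (10.5), Gcg (8.98) and Tac1 (8.78). Between neighbours in this order the values did not overlap for Ghrl and Cck or for Sst and Sct, and overlapped for all the other neighbours. In Lgr5-CREPTKO cells the order of means was Gip (13.1), Cck (7.64), Sct (6.06), Sst (3.995), Ghrl (3.20), Gcg (2.64) and Tac1 (2.17), and every pair of neighbours overlapped. Ghrl was thus second of 7 in both Lgr5-WT mice and the third and the fifth in the Lgr5-CREPTKO mice.

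Summed over the 7 genes, hormone expression stood at 140.95 and 242.07 FPKM in the Lgr5-WT mice and at 36.46 and 41.10 FPKM in the Lgr5-CREPTKO mice, or 191.5 ± 71.5 and 38.8 ± 3.28 FPKM (mean ± SD, n = 2), a 4.94-fold difference of means. The Lgr5-CREPTKO sums were close to each other although their makeup was not. Gip made up 52.4% of the sum in Lgr5-CREPTKO mouse 1 and 17.2% in mouse 2, whereas Sct made up 5.79% and 24.3%. The shares of Ghrl and Cck did not overlap between the genotypes, and moved in opposite directions. Ghrl made up 25.2% and 19.8% of the sum in the Lgr5-WT mice and 8.20% and 8.27% in the Lgr5-CREPTKO mice. Cck made up 16.5% and 10.9% in the Lgr5-WT mice and 17.6% and 21.5% in the Lgr5-CREPTKO mice. The nearest Cck shares of the 2 genotypes were thus 16.5% and 17.6%, and the FPKM of Cck itself fell. Separation is common with 2 mice of each genotype, as FPKM lay apart downwards in 31.0% and upwards in 25.6% of all genes tested. Because shares of a sum depend on each other, they were not tested. The 7 genes together took 0.0284% and 0.0485% of all FPKM in the Lgr5-WT libraries and 0.00778% and 0.00868% in the Lgr5-CREPTKO libraries.

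**Figure D3:**
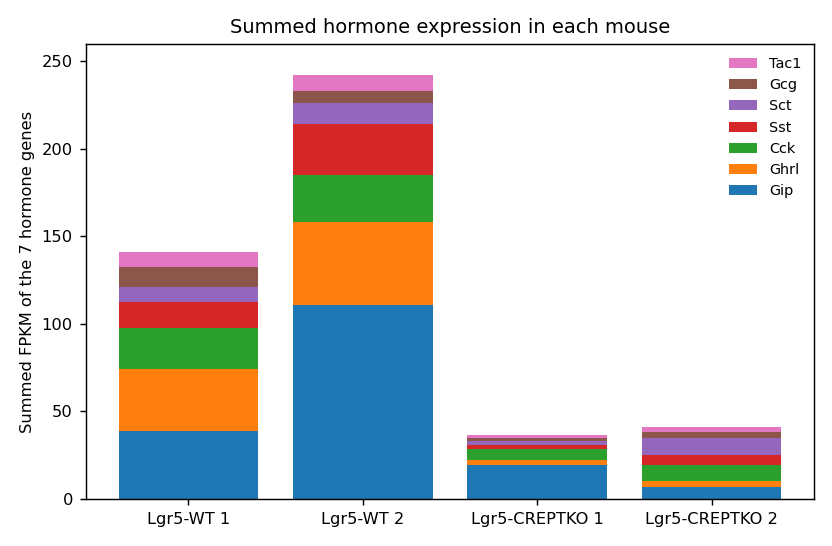
Summed FPKM of the 7 hormone genes in each mouse (vertical axis from 0), with 1 coloured segment for each gene. The Lgr5-WT bars reach 140.95 and 242.07 FPKM and the Lgr5-CREPTKO bars 36.46 and 41.10 FPKM, and the orange Ghrl segment narrows in both Lgr5-CREPTKO mice.

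Chromogranin A, a granule protein of most enteroendocrine cells, gave a reference for the hormones within each mouse. Chga itself was at 16.16 and 16.78 FPKM in the Lgr5-WT mice and at 5.03 and 8.48 FPKM in the Lgr5-CREPTKO mice (log2 fold change -1.27, adjusted p = 0.0638 by limma's moderated test). Ghrl was 2.20 and 2.85 times the FPKM of Chga in the Lgr5-WT mice and 0.594 and 0.401 times in the Lgr5-CREPTKO mice. The ratio of Ghrl to Chga was therefore separated between the genotypes. The ratio of Tac1 was 0.517 and 0.548 against 0.282 and 0.343, and that of Sst was 0.909 and 1.74 against 0.451 and 0.675. Cck stayed closer to Chga, at 1.44 and 1.57 times in the Lgr5-WT mice and 1.28 and 1.04 times in the Lgr5-CREPTKO mice. The ratios of Gip, Gcg and Sct overlapped between the genotypes. These ratios are given as values without a test, and separation is common with 2 mice of each genotype, as for the shares above.

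The promoters of the called genes Ghrl, Cck and Tac1 are shown with the motifs found in them, beside those of Gcg and Sst, which held a TATA box and a cyclic AMP response element. RefSeq promoter windows of 300 bases, from 250 bases before to 50 after each start on GRCm38.p6, were available for all 7 genes, with 10 windows in all since Ghrl has 4 annotated starts. Both strands were searched for the E-box hexamers CAGATG and CAGCTG, the type of site bound by basic helix-loop-helix factors such as Neurog3 and Neurod1, for TATAAA, and for the cyclic AMP response element TGACGTCA. No 2 matches overlapped. The start used for Sst lies inside the annotated gene, which reaches further upstream. The 250 bases before the start are printed 5′ to 3′ on the strand of the gene, with matches in capitals.
Ghrl, chr6:113719912-113720161, minus strand: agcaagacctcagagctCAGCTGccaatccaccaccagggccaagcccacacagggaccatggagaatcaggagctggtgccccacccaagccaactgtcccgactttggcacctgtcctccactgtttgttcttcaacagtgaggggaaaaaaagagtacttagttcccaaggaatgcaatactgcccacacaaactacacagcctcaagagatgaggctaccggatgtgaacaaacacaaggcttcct
Cck, chr9:121495695-121495944, minus strand: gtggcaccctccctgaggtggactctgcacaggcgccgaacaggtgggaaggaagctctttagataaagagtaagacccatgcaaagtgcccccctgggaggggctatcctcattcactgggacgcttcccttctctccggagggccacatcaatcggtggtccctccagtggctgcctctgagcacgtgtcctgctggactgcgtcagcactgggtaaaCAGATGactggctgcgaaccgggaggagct
Tac1, chr6:7554811-7555060, plus strand: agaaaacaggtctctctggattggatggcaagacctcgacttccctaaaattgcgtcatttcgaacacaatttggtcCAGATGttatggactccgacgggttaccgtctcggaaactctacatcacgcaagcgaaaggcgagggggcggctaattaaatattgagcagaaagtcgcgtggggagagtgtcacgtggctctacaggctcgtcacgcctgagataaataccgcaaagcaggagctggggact
Sst, chr16:23890845-23891094, minus strand: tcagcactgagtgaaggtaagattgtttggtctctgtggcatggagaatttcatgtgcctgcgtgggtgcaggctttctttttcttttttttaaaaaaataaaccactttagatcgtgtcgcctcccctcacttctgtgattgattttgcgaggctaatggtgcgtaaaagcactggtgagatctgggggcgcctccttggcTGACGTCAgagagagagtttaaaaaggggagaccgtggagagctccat
Gcg, chr2:62483654-62483903, minus strand: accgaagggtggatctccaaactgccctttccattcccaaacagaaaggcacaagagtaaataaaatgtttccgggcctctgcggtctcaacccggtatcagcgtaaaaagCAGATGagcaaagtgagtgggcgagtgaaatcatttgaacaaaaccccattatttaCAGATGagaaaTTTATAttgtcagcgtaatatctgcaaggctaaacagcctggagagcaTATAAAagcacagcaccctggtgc

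CAGATG stood in 6 of the 10 windows, where 17.2% of all 32851 windows of the same length held it. These were 1 window each of Cck, Gcg, Sct and Tac1 and 2 overlapping windows of Ghrl. In Cck it began 30 bases before the start, in Tac1 173 bases before, and in Gcg 139 and 83 bases before. In Ghrl it lay after 2 further starts, which share most of their window, and so outside the stretch printed. CAGCTG was found in 3 of the 10 windows, of Ghrl, Gip and Sct (16.3% of all windows). TATAAA was found in 2 of the 10, of Gcg and Sct (13.6% of all windows), 24 and 28 bases before the start on the strand of the gene. The full response element TGACGTCA was found in 1 of the 10, of Sst, 48 bases before the start, and 1.79% of all windows held it. Of the genes called lower, Cck, Tac1 and Ghrl each had CAGATG in a window, as did Gcg and Sct, which were not called, and none of the called genes held TATAAA or TGACGTCA.

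Among the enzymes that turn hormone precursors into peptides, Cpe was the 1 that passed the test. Of 12 such genes 11 were in the table and 8 were tested, with 1 called lower, 0 called higher and a median log2 fold change of 0.04. Cpe, the carboxypeptidase that trims basic residues from cut precursors, fell from 5.42 and 7.44 FPKM to 1.64 and 1.21 FPKM (log2 fold change -1.84, adjusted p = 0.0333 by limma's moderated test). Pcsk1, the convertase that acts on proglucagon and other precursors in the gut, was at 5.26 and 4.07 FPKM in the Lgr5-WT mice and at 3.09 and 3.38 FPKM in the Lgr5-CREPTKO mice (log2 fold change -0.46, adjusted p = 0.174). Mboat4, which attaches the fatty acid that activates ghrelin, was near 1 FPKM, at 1.16 and 0.89 FPKM against 0.28 and 0.59 FPKM (log2 fold change -0.72, adjusted p = 0.208). Pam, which amidates peptides such as cholecystokinin and secretin, was at 3.29 and 3.80 FPKM against 3.75 and 3.37 FPKM (log2 fold change 0.01, 95% interval -0.36 to 0.37, adjusted p = 0.985). Furin, a convertase of nearly all cells, was at 17.61 and 20.11 FPKM against 23.06 and 24.14 FPKM (log2 fold change 0.32, adjusted p = 0.135).

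Among granule proteins, 2 passed the test. All 9 tested of 12 had a negative log2 fold change, with a median of -1.17, and Chgb and Scgn were called lower. Of all 12621 genes tested, 6605 had a negative log2 fold change. Chgb, which encodes chromogranin B, was at 64.73 and 59.31 FPKM in the Lgr5-WT mice and at 22.89 and 31.95 FPKM in the Lgr5-CREPTKO mice (log2 fold change -1.18, adjusted p = 0.0423 by limma's moderated test). Scgn, the calcium-binding protein secretagogin, fell from 3.44 and 4.30 FPKM to 0.65 and 0.60 FPKM (log2 fold change -1.95, adjusted p = 0.0301). Of the transcription factors of the enteroendocrine lineage, 15 of 18 were tested, all 15 had a negative log2 fold change with a median of -1.10, and Neurod1 and Pax4 were called lower (log2 fold changes -1.56 and -1.67). Isl1, which is needed by several hormone-producing types, was at 1.81 and 2.67 FPKM against 0.68 and 0.38 FPKM (log2 fold change -1.41, adjusted p = 0.0656). Neurog3 was at 16.59 and 25.10 FPKM against 10.05 and 6.83 FPKM (log2 fold change -1.25, adjusted p = 0.0731). The regional and foregut factors Foxa1, Foxa2 and Pdx1 were at -0.25, -0.07 and -0.62 on the log2 scale (adjusted p from 0.114 to 0.744, limma). Pdx1 was at 7.98 and 7.73 FPKM against 4.21 and 5.81 FPKM. The paper lists Neurog3, Nkx2-2, Pdx1 and Pax6 as enteroendocrine genes decreased in these cells, from relative mean FPKM. Here each had both Lgr5-CREPTKO values below both Lgr5-WT values, as in 31.0% of all genes tested. The log2 fold changes of Nkx2-2 and Pax6 were -1.32 and -1.07. None of these genes passed the threshold used here, which is a different measure from the paper's. Over these lists and those of processing enzymes, other peptides, serotonin genes, sensors and receptors, 5 of the 44 genes tested were called lower, where 1.01% of all genes tested were. Lists of genes were described by counts and medians only.

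The serotonin list was drawn for enterochromaffin cells, which also express Tac1, but its genes differ in how far they are confined to these cells. All 5 tested of 6 had negative log2 fold changes, from -0.73 to -0.18, and 0 were called by limma's test, with 3 at an unadjusted p below 0.05. Of all 12621 genes tested, 6605 were negative and 1916 were lower at an unadjusted p below 0.05. Tph1, the enzyme that starts serotonin synthesis, was at 2.40 and 2.59 FPKM in the Lgr5-WT mice and at 0.99 and 1.69 FPKM in the Lgr5-CREPTKO mice (log2 fold change -0.73, adjusted p = 0.152). Ddc, of the same list, was far above Tph1, at 40.57 and 44.69 FPKM against 29.16 and 33.54 FPKM (log2 fold change -0.44, adjusted p = 0.0881). The part of other cells in the values of this list was not tested. The difference between the change of Tac1 and those of the serotonin genes was not tested either.

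Other gut peptides were mostly near 0 in these cells. Of 18 such genes 13 were in the table and 3 were tested. Pyy, the L cell peptide of the distal gut, was at most 0.35 FPKM, Nts, which encodes neurotensin, was at most 0.48 FPKM, and Gast, the gastrin gene, was at most 0.13 FPKM in any library, while Insl5 was not in the table. Guca2a, the guanylin gene, was at 68.67 and 105.20 FPKM against 34.87 and 40.27 FPKM (log2 fold change -1.17, adjusted p = 0.0610). Guca2b, the uroguanylin gene, was at 20.12 and 26.92 FPKM against 20.99 and 26.19 FPKM (log2 fold change 0.01, 95% interval -0.45 to 0.47, adjusted p = 0.980).

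Markers of other cells were compared in the same libraries, where 6605 of the 12621 genes tested had a negative log2 fold change and 6016 a positive one. Goblet cell markers had negative log2 fold changes in 8 of 8 genes (median -0.93), and their summed level stood at 1241 and 2162 FPKM in the Lgr5-WT mice and at 711.3 and 828.7 FPKM in the Lgr5-CREPTKO mice. All 5 tuft cell markers tested of 8 were negative (median -1.37), with sums of 21.8 and 44.9 FPKM against 17.8 and 6.65 FPKM. Lgr5-WT mouse 2 was the higher of its genotype in both sums, as it was in 6 of the 7 hormone genes. Stem cell markers had positive log2 fold changes in 11 of 12 genes (median 0.15), and both Lgr5-CREPTKO values lay above both Lgr5-WT values in 10 of them, against 25.6% of all genes tested. The 8 enterocyte markers were split 4 to 4 (median -0.04). Of 8 immune cell markers 7 were tested (median -0.37), with sums of 520.2 and 1178 FPKM in the Lgr5-WT mice against 288.1 and 890.7 FPKM. Cd74, which epithelial cells can also express, made up most of this sum, and the pan-leukocyte marker Ptprc was at most 1.35 FPKM in any library. Of 8 Paneth cell markers 6 had positive log2 fold changes (median 0.30). The 8 stromal markers summed to at most 1.52 FPKM in a library. None of these genes was called by limma's test, and their part in the hormone result was not tested.

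Sst, Gcg and Tac1 are also expressed outside the epithelium, in pancreatic islets or nerves. The islet genes Ins1 and Ins2 were not in the table. Of the 6 pancreatic markers listed, 2 were in it. Cela1 was at 5.28 and 4.96 FPKM in the Lgr5-WT mice and at 4.60 and 4.69 FPKM in the Lgr5-CREPTKO mice, and Cpa1 was at most 0.07 FPKM. The part of pancreatic cells in the hormone values was not tested. The 6 markers of enteric neurons and glia that were measured summed to 2.24 and 2.34 FPKM in the Lgr5-WT mice against 1.30 and 1.15 FPKM, and the part of nerves in the hormone values was not tested. The stromal marker Col1a1 was at most 0.08 FPKM in any library.

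**Figure D4:**
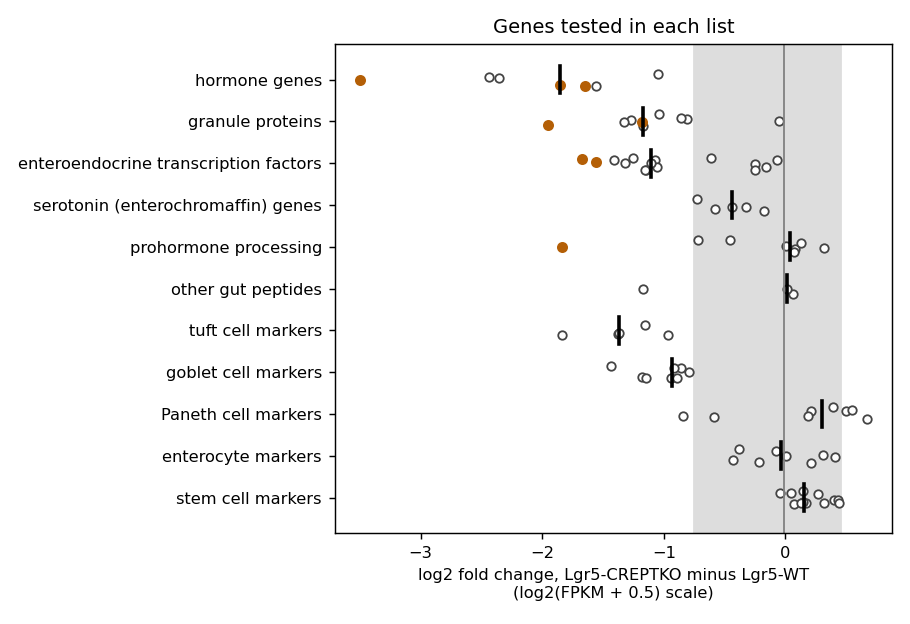
Log2 fold change of each gene tested (points, horizontal axis) by list, with a thick line at the median of the list and filled points for genes called lower. Grey shading spans the 5th to 95th percentile of all genes tested (-0.75 to 0.46) and the grey line is their median. The 7 hormone genes all lie left of the shading, and so do all 8 goblet cell markers and the 5 tuft cell markers tested. The serotonin genes lie within it, and the 12 stem cell markers run from -0.05 to 0.44.

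The genes whose pattern over the 4 mice lay closest to the mean pattern of the hormone genes, by Euclidean distance between centred log2(FPKM + 0.5) values, were Cd177 (distance 0.11), Zfp612 (0.27), Duox2 (0.29), Syne4 (0.30) and 4930481A15Rik (0.33). These 5 were picked as the nearest of all genes tested, so their short distances and their fall in Lgr5-CREPTKO mice follow from the choice. Among the hormone genes themselves, which were not picked by distance, the distance to that mean, in which each takes part, ran from 0.36 for Tac1 to 1.59 for Gip. Cd177, a surface glycoprotein best known from neutrophils, was at 14.33 and 19.89 FPKM in the Lgr5-WT mice and at 3.24 and 4.88 FPKM in the Lgr5-CREPTKO mice (log2 fold change -1.95, adjusted p = 0.0372 by limma's moderated test). Duox2, an epithelial enzyme that makes hydrogen peroxide, was at 7.74 and 11.92 FPKM against 1.48 and 3.05 FPKM (log2 fold change -1.93, adjusted p = 0.0595).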

How the data were processed

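RNA of sorted Lgr5-GFP high cells from 2 Lgr5-WT and 2 Lgr5-CREPTKO mice was analysed. The authors deposited 1 table of FPKM values, with 1 row for each gene symbol and 1 column for each mouse, rounded to 2 decimals. The study's RNA-seq methods, written for crypts and intestines, give alignment by Bowtie2 against GRCm38.p6 transcripts and quantification by RSEM, and the submitters' processing notes also list HISAT and mm10. FPKM is relative to all other genes of a library, and no gene at 0 in all 4 mice is in the table.

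Columns were matched to mice by the sample titles. Values were taken as log2(FPKM + 0.5), a scale on which changes of low genes are understated, and genes whose mean reached 0.5 FPKM were compared with limma 3.58.1 in R 4.3.3, with an intensity trend and no covariate. The study used a model of read counts, which FPKM values do not allow, so its threshold (adjusted p below 0.05, absolute log2 fold change above 1) was applied to limma's test. The smallest p of an exact permutation test is 0.333 at this size. The fit was first tested on simulated data. Fragments were estimated from the FPKM assumed to stand for 1 fragment in single-transcript genes of GENCODE M21, on the same assembly. The preset range of that value limits the depth that could be found. Coordinates and promoter sequences came from RefSeq on GRCm38.p6.

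The 7 hormone genes and the gene lists were chosen with earlier results of these data known. Genes named are the 7, Rprd1b, list members called and up to 4 others a list with the largest changes, enzymes acting on the hormones, and the 5 nearest genes by pattern. Foxa1, Foxa2, Pdx1, Pax6, Olfm4, Ptprc, Xist, Ddx3y and genes at or near 0 were named for their role or their mention in the paper after their values were seen. The mice share replicate numbers 1 and 2 across genotypes but are different animals. The pseudocount, filter, scaling, variance prior, replicate block, small RNA genes, threshold and each mouse left out were varied.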

Additional observations from a re-analysis of the deposited data

How the results depend on the processing

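All 7 hormone genes kept a negative log2 fold change in each of the 15 alternatives. Without the filter on low values, limma's test called 0 hormone genes, 0 companion genes (peptides, enzymes, granule proteins, transcription factors, serotonin genes, sensors and receptors), and 0 lower and 0 higher of all genes, with log2 fold changes of -3.50 for Ghrl, -1.65 for Cck and -1.86 for Tac1 (adjusted p = 0.105, 0.123 and 0.144), while 6 hormone genes, 40 companion genes and 2250 lower and 1320 higher of all genes had an unadjusted p below 0.05. Without the intensity trend it called 0 hormone and 0 companion genes, and 4 lower and 0 higher of all genes, at the same fold changes (-3.50, -1.65 and -1.86, adjusted p = 0.0623, 0.0657 and 0.0861), with 6 hormone genes, 29 companion genes and 1816 lower and 1105 higher of all genes at an unadjusted p below 0.05. The cause was not tested. Tac1 was -2.05 at a pseudocount of 0.1 and -1.79 with equal library sums, and both missed the threshold. Against 5 in the main test, companion genes called lower numbered 9 with a robust variance prior and 12 without small RNA genes. With adjusted p alone, 337 genes were called lower and 52 higher, against 128 and 16.

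The replicate numbers share no animal, and deviations of same-numbered mice had a correlation of -0.03 across genes. With the replicate number as a block, Sst was called (-2.36, adjusted p = 0.0252), and Duox2 was called as well (adjusted p = 0.0316). Chgb, Neurod1 and Pax4 missed the threshold (adjusted p = 0.0514, 0.0508 and 0.0539), 3 companion genes were called lower in place of 5, and 8 of all genes were called higher. The block moved no other hormone gene across the threshold.

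With each mouse left out in turn, calls ranged from 0 to 0 for hormone genes, companion genes, and all genes lower or higher, with 1177 to 1587 genes lower and 634 to 916 higher at an unadjusted p below 0.05, and 21 to 26 companion genes lower at it. A lone mouse was then assumed to vary like the other genotype. The log2 fold change ranged from -3.71 to -3.29 for Ghrl, from -1.87 to -1.43 for Cck and from -2.27 to -1.44 for Tac1. Fragment estimates of under 100 in Lgr5-CREPTKO mice for Tac1, Ghrl, Sst, Gcg and Sct, and in 1 of those mice for Cck and Gip, limit the precision of those values.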

Other observations

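Several genes of the secretory machinery and its control had mean values below 0.5 FPKM and were given no test. Scg5, which encodes the 7B2 chaperone of a prohormone convertase, was at 0.59 and 0.62 FPKM in the Lgr5-WT mice and at 0.04 and 0.05 FPKM in the Lgr5-CREPTKO mice. Scg3, a granule protein, was at 0.65 and 0.83 FPKM against 0.07 and 0.28 FPKM. Abcc8 and Kcnj11, which together form the ATP-sensitive potassium channel of hormone-secreting cells, were at 0.50 and 0.87 FPKM against 0.16 and 0.19 FPKM, and at 0.29 and 0.36 FPKM against 0.14 and 0.06 FPKM. These 4 genes were chosen after their values were seen, and in other untested genes of the same lists, such as Ffar3 and Qpct, the genotypes overlapped.

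Receptors for the hormones were scarce in these cells. Of 16 receptor genes 9 were in the table, and Gipr was the 1 gene that passed the filter, at 0.92 and 0.66 FPKM in the Lgr5-WT mice and at 0.76 and 0.35 FPKM in the Lgr5-CREPTKO mice (log2 fold change -0.31, adjusted p = 0.578 by limma's moderated test). The somatostatin receptor genes Sstr1 and Sstr5 were at most 0.32 FPKM in any library. Among nutrient sensors, Ffar4, a receptor for long-chain fatty acids, was at 2.06 and 3.90 FPKM against 1.37 and 0.94 FPKM (log2 fold change -1.03, adjusted p = 0.138). Slc5a1, the sodium-glucose transporter that enterocytes also express, was at 59.25 and 76.54 FPKM against 78.16 and 85.32 FPKM (log2 fold change 0.28, adjusted p = 0.294).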
